A study of Homo sapiens with 2 samples.

Results

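Enzymes that add methyl groups to histone lysines or remove them were examined as targets of NRF-1 in glioblastoma cells. The set held every protein-coding gene on chromosomes 1 to 22 and X whose symbol begins with KMT, SETD or KDM, which gave 38 genes of 19756. Symbols beginning with KMT or SETD (SETDB1 and SETDB2 included) were taken as methyltransferases, 19 genes, and symbols beginning with KDM as demethylases, also 19 genes. The rule for membership reads only the gene symbol.

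NRF-1 binding was measured by ChIPmentation, a chromatin immunoprecipitation in which Tn5 transposase adds the sequencing adapters, with an anti-NRF-1 antibody from Diagenode. The cells were U251, an established human glioblastoma line, transiently transfected with siControl, a control siRNA, or with siAATF, an siRNA against the transcriptional cofactor AATF. The sample labels give U251, as does the paper for its NRF-1 ChIP-seq, although the design text of the series gives U138. The labels were followed. There was 1 peak list per condition, so no spread between replicates was available and no test between conditions was made. The experiment is described as a duplicate, but both labels carry replicate number 1 and pooling was not stated. No input or IgG library was named, and no measure of AATF itself was analysed here, so the depletion could not be checked from these lists.

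NRF-1 is a transcription factor best known for activating nuclear genes of the mitochondrial respiratory chain, and it binds GC-rich promoters as a dimer at a palindromic core. Histone lysine methyltransferases carry, with few exceptions, a SET domain. Lysine demethylases are either flavin-dependent amine oxidases or JmjC enzymes that need iron and 2-oxoglutarate. Methylation of H3K4 marks active promoters, that of H3K36 transcribed gene bodies, and that of H3K9, H3K27 and H4K20 is associated with silent or compacted chromatin.

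Promoter windows reached 1 kb up- and downstream of each coding transcript start of a gene in GENCODE release 44 lifted to hg19, and a peak counted if it touched such a window by at least 1 base. Each peak came with its fold enrichment over the local background of its own library and its −log10 q, the strength of the evidence for the peak. Peaks were also given a percentile rank by fold enrichment within their own list, 0 being the weakest and 100 the strongest. Of several promoter peaks of a gene the one with the highest fold enrichment was used. The lists held 18014 siControl and 18454 siAATF peaks, and the read depth behind them was unknown. Fold enrichment and −log10 q were not compared between lists, since both depend on the library.

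Sequences from promoter peaks that hold the NRF-1 core are shown first, because these are the letters the factor is known to bind. The peaks were chosen for an exact core, or for a high −log10 q together with a near-exact core. They are not the peaks of highest fold enrichment. The NRF-1 core searched was 10 bases long, the motif GCGCA followed by its reverse complement TGCGC, so both strands are covered by the same search. Windows of 30 bases are printed 5′ to 3′ on the strand of the gene, with the core in capitals and coordinates on hg19. A substitution gives the base of the core, its position counted from 1 at the 5′ end of the core, and the base found there. The exact core occurred in the promoter peaks of SETD4, KDM5C and KMT2C. In SETD4 it was at chr21:37432854-37432883 on the minus strand, at −45 bp from the canonical start, where negative is upstream. In KDM5C it was at chrX:53254661-53254690 on the minus strand, at −287 bp from the canonical start and −72 bp from the nearest coding start. In KMT2C it was at chr7:152133709-152133738 on the minus strand, within an exon of a coding transcript other than the canonical one and 5 bp inside that transcript.
SETD4: cgcgaacactGCGCATGCGCgagccggaag
KDM5C: tctccataacGCGCATGCGCatcactggcc
KMT2C: ggcgggagcgGCGCATGCGCggagcgaggc

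The peaks of KDM8 and KDM2A had the highest −log10 q of all members in siControl (83.1 and 73.6, followed by 73.4 for KDM7A) and held the most cores with 1 mismatch, which is why these are printed too. KDM8, a JmjC protein, had 4 such sites on the plus strand, at chr16:27215061-27215090 (A5G), chr16:27215101-27215130 (G1C), chr16:27215208-27215237 (C10T) and chr16:27215289-27215318 (A5C). Sites 1 to 3 lay in an intron of the canonical transcript, and site 4 in an exon of another coding transcript.
KDM8 site 1: gcccggcctcGCGCGTGCGCcttggaaaac
KDM8 site 2: gctcgagttgCCGCATGCGCtctgagaatg
KDM8 site 3: cagtggttttGCGCATGCGTgagggcaggc
KDM8 site 4: taggcctagtGCGCCTGCGCgggttttata

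KDM2A, an H3K36 demethylase, had 3 such sites on the plus strand, at chr11:66886377-66886406 (T6G), chr11:66886542-66886571 (A5G) and chr11:66886689-66886718 (A5C). They lay at −342, −177 and −30 bp from the canonical start.
KDM2A site 1: ggtgccctgcGCGCAGGCGCgagcagccag
KDM2A site 2: cgacgcatccGCGCGTGCGCgcgccggcgg
KDM2A site 3: tggggaggtgGCGCCTGCGCagtgcgcctc

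Most of the enzyme genes had an NRF-1 peak at a promoter. In the siControl list 34 of 38 members did, a share of 89.5% (95% exact binomial interval 75.2 to 97.1), against 61.2% of all coding genes. In the siAATF list 35 members did, 92.1% (78.6 to 98.3), against 60.8% of all coding genes. These intervals cover counting error over genes only. A peak with a −log10 q of at least 5 was present in 30 members (78.9%) in siControl and in 31 (81.6%) in siAATF, where the share over all coding genes was 51.6% in both lists. A promoter peak was found in both lists for 18 of 19 methyltransferases (94.7%, 74.0 to 99.9). Among the demethylases 16 of 19 (84.2%, 60.4 to 96.6) had one in siControl and 17 (89.5%, 66.9 to 98.7) in siAATF. The intervals of both classes overlapped.

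**Figure D1:**
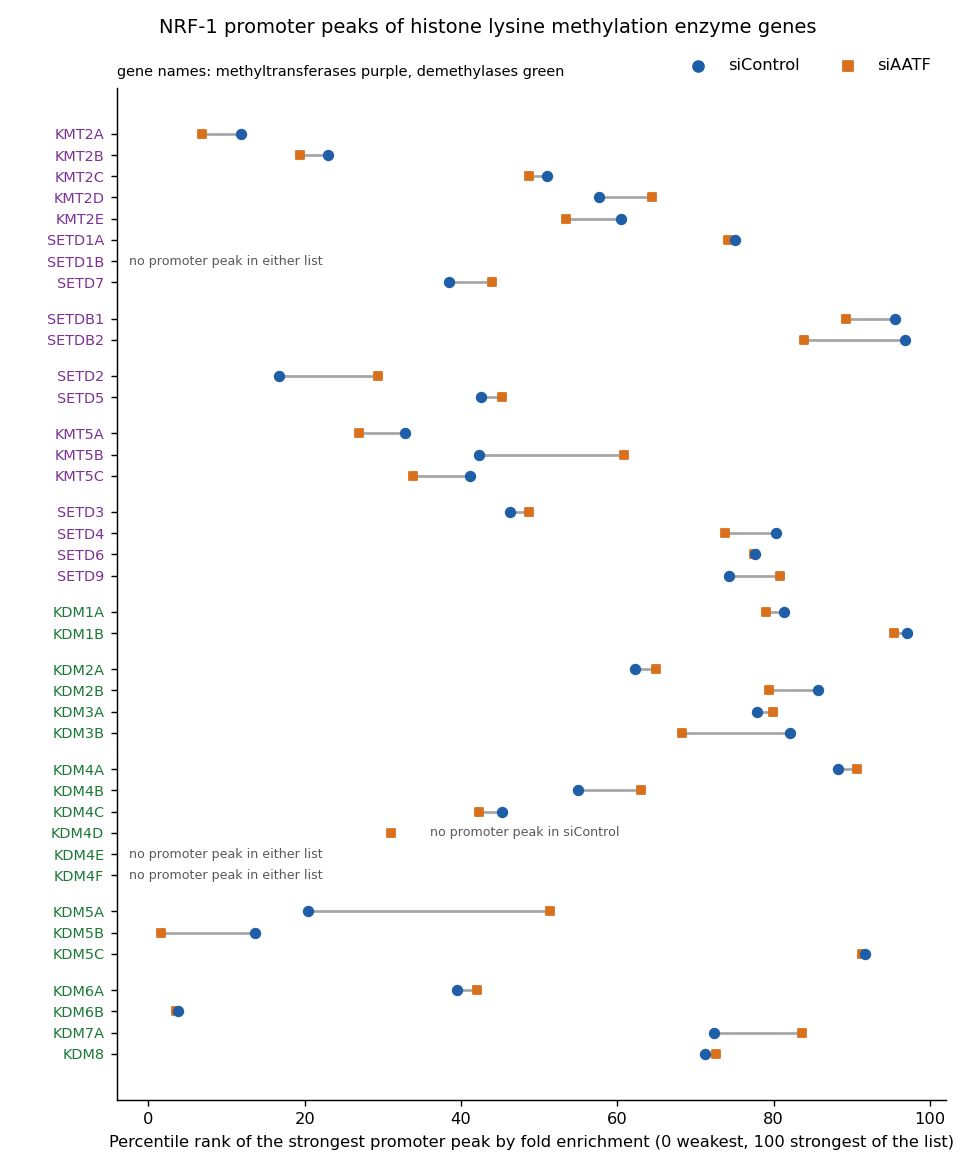
Percentile rank of the strongest promoter peak by fold enrichment (x axis, 0 to 100) for each of the 38 genes (y axis, grouped by role), with siControl as blue circles, siAATF as orange squares and a grey line joining them. Ranks ran from 3.86 for KDM6B to 97.1 for KDM1B in siControl, and the longest line was that of KDM5A, from 20.4 to 51.4.

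Of the 8 H3K4 methyltransferases 7 had a promoter peak in both lists, with ranks by fold enrichment from 11.9 to 75.1 in siControl. KMT2A (MLL1) ranked 11.9 in siControl, with a fold enrichment of 3.74 and a −log10 q of 2.65, and 6.87 in siAATF, with 3.47 and 2.26. KMT2B ranked 23 and 19.4, with fold enrichments of 4.25 and 4.02. KMT2C and KMT2D, the catalytic subunits of the enhancer-associated complexes, ranked 51.0 and 57.6 in siControl and 48.7 and 64.4 in siAATF. KMT2A and KMT2B thus stood low by fold enrichment in both lists. By −log10 q KMT2B ranked 72.8 in both, above the all-gene medians of 65.2 and 66.2, whereas KMT2A did not reach a −log10 q of 5 in either.

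The remaining H3K4 genes varied in rank. SETD1A, a catalytic subunit of the COMPASS complex, had the highest rank of the group, 75.1 in siControl and 74.1 in siAATF. KMT2E, whose SET domain is regarded as inactive, ranked 60.5 and 53.4, and SETD7, an H3K4 monomethyltransferase, ranked 38.4 and 43.9. SETD1B, the paralog of SETD1A, was the only methyltransferase without a promoter peak in either list. Its nearest peak in siControl was 2.53 kb from its start, at chr12:122238133-122239388, at the promoter of RHOF, and its gene body held a peak at chr12:122249798-122250293 of rank 60.0 in siControl and 46.2 in siAATF.

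The H3K9 methyltransferases of the set, SETDB1 and SETDB2, had the highest fold enrichments among its methyltransferases. SETDB2 had a fold enrichment of 9.76 in siControl and ranked 96.8. In siAATF its fold enrichment was 7.85 and its rank 83.9. SETDB1, which silences endogenous retroviruses, had fold enrichments of 9.53 and 8.28 and ranked 95.5 and 89.2. By fold enrichment both genes stood near the top of the siControl list and somewhat lower in the siAATF list. By −log10 q SETDB2 ranked 74.1 and SETDB1 76.8 in siControl, below SETD4 (93.5), KMT2C (92.1) and SETD1A (88.1). The SETDB2 peak lay between 2 genes and also covered the promoter of CAB39L.

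The H3K36 and H4K20 methyltransferases of the set had peaks of lower fold enrichment. SETD2, the enzyme for H3K36 trimethylation, ranked 16.7 in siControl with a −log10 q of 2.59, and 29.4 in siAATF with 4.02. Its relative SETD5 ranked 42.6 and 45.3. Among the H4K20 enzymes KMT5A ranked 32.8 and 27, KMT5B 42.3 and 60.9, and KMT5C 41.1 and 33.9. None of these 5 genes ranked above the all-gene median by fold enrichment, 63.4 in siControl and 64.4 in siAATF. By −log10 q SETD5 ranked 78.1 and 81.1 and KMT5C 73.2 and 74.1, above the all-gene medians on that scale.

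The other SETD genes, apart from SETD3, ranked above all of these in both lists, although several of their proteins act mainly outside histones. SETD4 had a fold enrichment of 8.01 and a −log10 q of 71.9 in siControl, and 7.14 and 64.3 in siAATF, with ranks of 80.3 and 73.8. SETD6, which methylates the NF-kappaB subunit RelA, ranked 77.6 and 77.5, and SETD9 ranked 74.3 and 80.8. SETD3, an actin histidine methyltransferase, ranked 46.3 and 48.7 at a promoter it shares with CCNK.

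The flavin-dependent demethylases both ranked high. KDM1B (LSD2) had the highest rank of all members, 97.1 in siControl and 95.4 in siAATF, with fold enrichments of 9.85 and 8.97. KDM1A (LSD1), which demethylates H3K4, ranked 81.3 and 79.0. The KDM1B peak also covered the promoter of TPMT, and that of KDM1A the promoter of TEX46.

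The KDM2 and KDM3 genes all had a promoter peak in both lists. KDM2A ranked 62.2 in siControl and 64.9 in siAATF, and KDM2B, the other H3K36 demethylase of this pair, 85.6 and 79.4. The H3K9 demethylases KDM3A and KDM3B ranked 77.9 and 82.1 in siControl and 79.9 and 68.3 in siAATF. The rank of KDM3B was 13.9 points lower in siAATF, the largest difference in that direction among the members.

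The KDM4 family, which demethylates H3K9 and in part H3K36, was divided. KDM4A ranked 88.2 and 90.7, KDM4B 54.9 and 63.0, and KDM4C 45.2 and 42.3. KDM4E and KDM4F, neighbours on chromosome 11, had no promoter peak in either list, and their nearest peak, at the promoter of SRSF8, lay 41.7 kb and 18.8 kb away in siControl. KDM4D, the next gene of that cluster, had none in siControl and a weak one in siAATF at chr11:94706613-94707012, with a fold enrichment of 4.55, a −log10 q of 3.35 and a rank of 31.0. That peak also covered the promoter of CWC15. KDM4D was the only member with a promoter peak in just 1 list, where 2.80% of all coding genes had one, and the 3 genes of this cluster were the only demethylases without a promoter peak in siControl.

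The H3K4 demethylases of the KDM5 family held extremes of both kinds. KDM5C ranked 91.7 in siControl and 91.3 in siAATF, with fold enrichments of 9.03 and 8.47. KDM5B ranked 13.6 and 1.58, with −log10 q of 4.04 and 1.5. KDM5A ranked 20.4 and 51.4, with −log10 q of 2.58 and 5.66. KDM5C therefore had a strong peak in each list, while the peaks of KDM5A and KDM5B in siControl were among the weakest of the members. KDM5D is on chromosome Y and was outside the rule.

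The remaining JmjC genes differed widely. KDM8 had the highest −log10 q of the members, 83.1 in siControl and 81.1 in siAATF, and ranked 71.2 and 72.6 by fold enrichment. KDM7A, which demethylates H3K9 and H3K27, ranked 72.3 and 83.6, with −log10 q of 73.4 and 74.4. The H3K27 demethylase KDM6A (UTX) ranked 39.5 and 42.1. Its relative KDM6B (JMJD3) ranked 3.86 and 3.50, the lowest rank of the members in siControl.

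The value for KDM6B depended on where the promoter window ended. Its counted peak, at chr17:7746921-7747613 in siControl, began 9386 bp inside the gene, upstream of an alternative coding start. A far stronger peak, at chr17:7738607-7739652, began 1072 bp downstream of the canonical start, 72 bp beyond the window, and had a fold enrichment of 7.25, a −log10 q of 89.9 and a rank of 69.9. In siAATF it began 32 bp beyond the window, with a −log10 q of 85.0 and a rank of 70.6. Its −log10 q was above that of every member's counted peak in both lists. It held 1 core with the substitution A5C in an intron, at chr17:7739094-7739123 on the plus strand, 20 bp from the peak midpoint in siControl.
KDM6B: gcacccccttGCGCCTGCGCggcgagccgg

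Methyltransferases and demethylases were then set side by side. The median rank in siControl was 48.7 (95% exact order-statistic interval 38.4 to 75.1, n = 18) for methyltransferases and 71.7 (39.5 to 85.6, n = 16) for demethylases. Over all coding genes with a promoter peak it was 63.4. In siAATF the medians were 51.1 (33.9 to 74.1) and 68.3 (42.3 to 79.9), and 64.4 over all genes. The demethylase median was the higher in both lists, but the intervals overlapped over most of their length and each class spanned nearly the whole range. All 34 members together had a median of 59.1 (42.3 to 77.6) in siControl, and the 35 in siAATF one of 63.0 (45.3 to 74.1), so the members with a peak did not stand above other bound genes by fold enrichment.

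Ranking by −log10 q gave another picture of the same peaks. The members' median rank was then 73.8 (60.5 to 84.0) in siControl and 72.8 (61.2 to 84.4) in siAATF, against 65.2 and 66.2 over all coding genes. Methyltransferases had a median of 73.0 (57.1 to 78.1) and demethylases of 82.4 (46.8 to 89.0) in siControl, and 69.0 (61.2 to 81.1) and 82.3 (49.1 to 88.1) in siAATF. The medians of both classes were above that of all genes on this scale, and each of these intervals, those of all members included, contained the all-gene median.

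**Figure D2:**
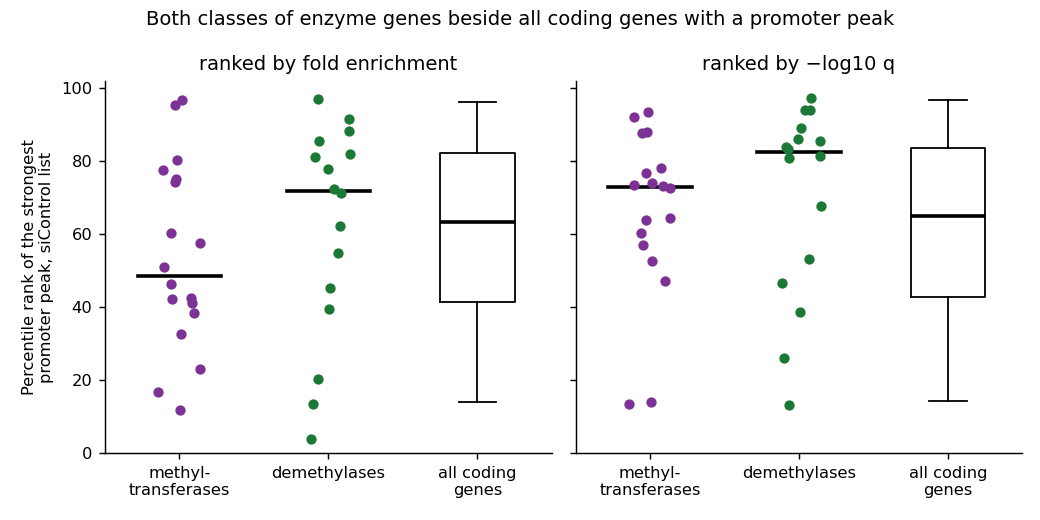
Percentile rank of the strongest promoter peak in siControl (y axis, 0 to 100) by fold enrichment (left) and by −log10 q (right), for methyltransferases, demethylases and all coding genes with a promoter peak. Points are genes with the median as a bar, and the box gives the quartiles and median of all genes with whiskers from the 5th to the 95th percentile. The medians of the classes were 48.7 and 71.7 by fold enrichment and 73.0 and 82.4 by −log10 q.

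The width of the peaks moved with the difference between the scales. Members' strongest peaks had a median width of 1051 bp in siControl (847 to 1168), against 854 bp over all coding genes, and 20 of 34 (58.8%) were at least 1 kb wide, against 29.2%. Methyltransferase peaks had a median of 1154 bp and demethylase peaks of 968 bp. KMT2B had the widest, 2230 bp, and ranked 23 by fold enrichment and 72.8 by −log10 q. KDM4C (1634 bp) ranked 45.2 and 89.0, and KMT2C (1380 bp) 51.0 and 92.1. The narrower peaks of SETDB2 (667 bp) and SETDB1 (661 bp) ranked 96.8 and 95.5 by fold enrichment but 74.1 and 76.8 by −log10 q. Across the 34 members Spearman's rho between width and the gap between both ranks was 0.705, and across all genes 0.685, a description over peaks of 1 library.

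The rank of most members was similar in both lists. Over the 34 genes with a promoter peak in both, the rank in siAATF minus that in siControl had a median of −0.358 points (−3.53 to 2.63), with 19 genes lower and 15 higher. The median over all coding genes was 0.156. The median absolute difference was 5.31 points for members and 5.12 for all genes. It had a median of −1.62 (−6.28 to 5.59) for methyltransferases and of 0.539 (−2.87 to 2.70) for demethylases, and both intervals included 0.

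KDM5A was the only member whose rank differed by more than 20 points, by 31.0, where 6.54% of all coding genes with a peak in both lists did so. Its peak was at chr12:498197-498814 in siControl and at chr12:498492-498902 in siAATF, and it also covered the promoter of CCDC77. The peaks overlapped over 52.3% of the longer one. The next largest differences were those of KMT5B (18.6), KDM3B (−13.9), SETDB2 (−12.8), SETD2 (12.7), KDM5B (−12.0) and KDM7A (11.3). With no replicate list, how far such differences exceed the variation between libraries was not measurable. By −log10 q the rank of KDM5A differed by 23.5 points and that of KDM5B by −24.1, 2 of 34 members (5.88%), where 2.37% of all coding genes differed by more than 20 points. The KDM5B peaks overlapped over only 29.3% of the longer one. The siAATF peak of KDM5B had a −log10 q of 1.5, near the lowest of that list, 1.02. In KMT5A the strongest peak was a different one in each list, at the alternative start in siControl and at the canonical start in siAATF, and both peaks were present in both lists.

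Cores within 1 mismatch were then counted in a window of 500 bp centred on each strongest peak, so that all genes were searched over the same length. In siControl 7 of 34 members held one (20.6%, 8.70 to 37.9), against 22.2% of all genes with a promoter peak. In siAATF 6 of 35 did (17.1%, 6.56 to 33.6), again against 22.2%. The share of the members was thus close to that of all bound genes. It comprised 2 methyltransferases (11.1%, 1.38 to 34.7) and 5 demethylases (31.2%, 11 to 58.7) in siControl, intervals that overlapped. The member counted in siControl alone was KDM4C. Its site lay −226 bp from the siControl peak midpoint, and outside the window of its siAATF peak but still inside that peak. The exact core was in the window of SETD4 and KDM5C in both lists, 5.88% of members in siControl against 3.65% of all genes. In 500 bp windows centred on the canonical start, peak or no peak, 10.5% of the 38 members and 11.6% of all coding genes held a core within 1 mismatch.

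Members with such a core had the larger −log10 q. The median was 60.0 in siControl (51.3 to 83.1 as lowest and highest, n = 7) with a core and 20.3 (2.58 to 73.4, n = 27) without, and over all coding genes it was 68.3 and 12.5. Of the 10 members with the highest −log10 q, 8 held a core somewhere in the whole peak, namely KDM8, KDM2A, SETD4, KMT2C, KDM4C, SETD1A, KDM3A and KDM5C, whereas KDM7A (73.4) and KMT2E (56.9) held none. Of the other 24 members with a peak 1 did, KMT2B, with the substitution G3A. These counts are over whole peaks of unequal length, and the matching shares of all coding genes were not computed. The cores of KMT2C and KMT2B lay outside the central 500 bp. Width itself rose with the rank by −log10 q (Spearman's rho 0.308 across members and 0.498 across all genes in siControl). By fold enrichment the members with and without a core were less separated. KDM1B, SETDB2 and SETDB1 had the 3 highest fold enrichments and no core within 1 mismatch in the peak, which says only that these letters were not in that stretch.

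**Figure D3:**
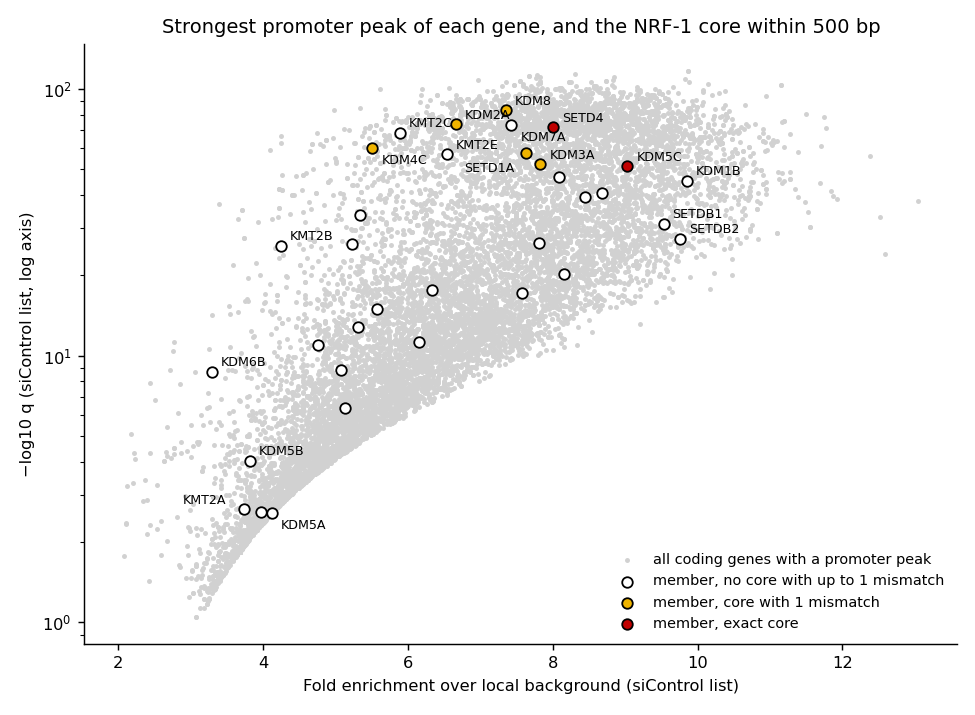
Fold enrichment (x axis) and −log10 q (y axis, log scale) of the strongest promoter peak in siControl, with all coding genes in grey and the members as circles filled by the NRF-1 core in the central 500 bp (red exact, yellow 1 mismatch, white neither). The 7 filled circles all lie at a −log10 q of 51.3 or more, while open circles run from 2.58 to 73.4.

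Across whole peaks 15 sites were found in 9 members, 3 exact, 4 with A5G and 4 with A5C, and 11 of the 15 lay within 100 bp of a coding start. The others, 1 in KMT2B, 1 in SETD1A and 2 in KDM2A, lay from −1345 to −147 bp, and the peaks searched were themselves promoter peaks. All 15 were also inside the strongest siAATF peak of the same gene. The matching counts over all coding genes were not computed, so these numbers have no background beside them. Members' peaks were also wider than those of all genes (median 1051 against 854 bp in siControl), which gives a longer stretch to search. SETD1A (A5G), KDM4C (A5G), KMT2B and the genes with the exact core held 1 each, KDM3A held 2 (both A5C), KDM2A 3 and KDM8 4.

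Most members had several annotated promoters. The 38 genes had 89 separate promoter windows, with more than 1 in 22 genes, and 38 windows (42.7%) held a peak in each list, against 38.6% and 38.4% of the windows of all coding genes. Separate promoter peaks were found in 4 members in siControl (11.8% of those with a peak, against 9.45% of all genes) and in 3 in siAATF (8.57% against 9.68%), shares close to the background. At the canonical start alone a peak was found in 33 members (86.8%) in each list, against 58.4% of all coding genes in siControl and 58.1% in siAATF. Peak midpoints lay a median of 145 bp from the nearest coding start in siControl (87 to 200), against 84 bp over all coding genes. The GC content of the central 500 bp had a median of 71.6% (62.8 to 75) for members and 69.4% for all genes.

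The 4 genes with separate promoter peaks were KMT2D, KMT5A, KDM2A and KDM2B. KDM2A had a strong peak at its canonical start (rank 62.2) and a narrow one at chr11:67007305-67007618 (rank 44.6), at an internal start, beginning 120571 bp downstream of the canonical start. KDM2B had a peak of rank 85.6 near its canonical start and one of rank 25.1 at chr12:121974977-121976147, at an internal start. KMT5A had peaks of rank 19.5 and 32.8 in siControl, at chr12:123868243-123868874 and chr12:123873210-123874569. In KMT2D the strongest peak, chr12:49449601-49450185, lay 4392 to 4976 bp inside the gene, upstream of an alternative coding start. It had the lowest ratio of observed to expected CpG of the members, 0.185, where the median of the members was 0.887. At the canonical start of KMT2D only a very weak peak was listed, in siControl alone, at chr12:49454091-49454566 with a rank of 0.833.

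**Figure D4:**
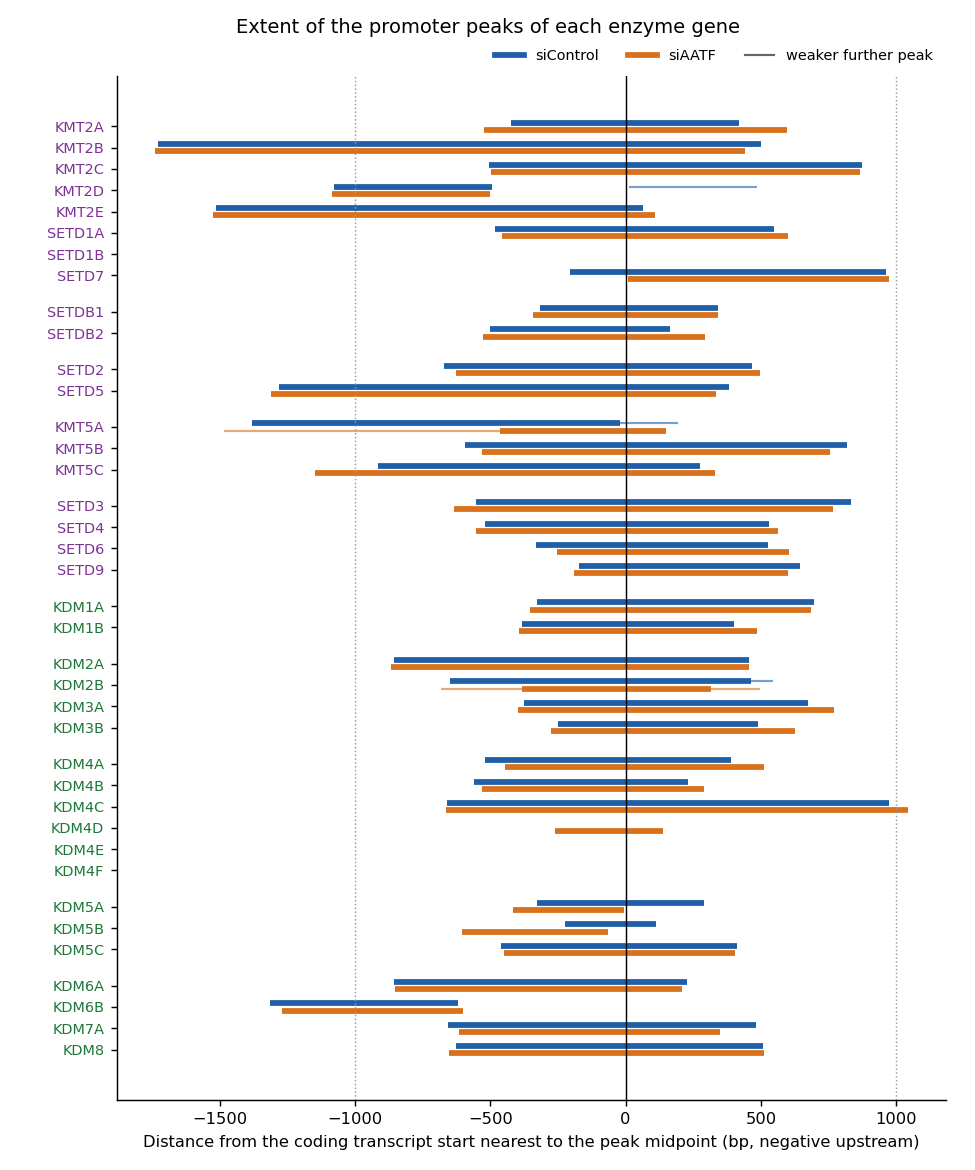
Extent of each promoter peak in bp (x axis) from the coding start nearest to the peak midpoint, negative upstream, for each gene (y axis), with siControl in blue, siAATF in orange, the strongest peak as a thick bar and further peaks as thin lines. Most bars cross the start at 0, the KMT2B peak is the widest at 2230 bp in siControl, and those of KMT2D and KDM6B lie upstream of an alternative start.

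A peak at a promoter was shared with another coding gene in 6 of 34 members in siControl (17.6%), against 24.7% of all genes. These were SETDB2, KDM1A, KDM1B, SETD3, KDM5A and KMT5C, the last with AC020922.1. Binding at these promoters cannot be assigned to either gene. Outside promoter windows, the gene body held a peak in 8 of 38 members in siControl (21.1%) and in 9 in siAATF (23.7%), against 13.2% and 14.2% of all coding genes, and the median gene length was 57.2 kb for members and 27 kb for all genes, whose part in this was not tested. Apart from the KDM6B peak these included one in KDM2B, at chr12:121904394-121905709, of rank 62.3 in siControl and 85.8 in siAATF, and one in SETD4 at the promoter of CBR1 (87.6 and 88.1).

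Other genes listed with histone lysine methylation had promoter peaks in similar shares. Of 24 such genes under other symbols, 21 (87.5%, 67.6 to 97.3) had a promoter peak in siControl and 20 (83.3%, 62.6 to 95.3) in siAATF. EHMT2, an H3K9 methyltransferase, PRDM9, the meiotic H3K4 enzyme, and SMYD1, a muscle enzyme, had none. RIOX1 had a peak in siControl alone, of rank 11.9. The median rank of the group in siControl was 63.8 (51.4 to 77.5), near the 63.4 of all genes. Among its H3K9 methyltransferases with a peak SUV39H2 ranked 85.3, SUV39H1 80.0 and EHMT1 63.9 in siControl. JMJD1C, PHF8 and PHF2 of the same group ranked lower, 51.4, 44.3 and 23.5. Among its H3K36 enzymes NSD2 ranked 77.5, ASH1L 72.8, NSD3 51.5 and NSD1 30.3. A core within 1 mismatch was in the window of 9 of 21 (42.9%, 21.8 to 66.0), an interval that contained the 22.2% of all genes. They included EZH2, the H3K27 methyltransferase of Polycomb (−log10 q of 69.6), EHMT1 (82.0), SUV39H1 (54.7) and ASH1L (84.8). HSPBAP1 and JMJD6, whose activity on histone lysine methylation is uncertain, were also among the 9 with a core. All 9 genes for partner subunits had a promoter peak in both lists, against 61.2% and 60.8% of all coding genes. Their −log10 q in siControl ran from 9.25 to 65.9 with a median of 18.4, near the 18 of all genes. WDR5 and DPY30 of the H3K4 complexes had the highest, 65.9 and 48.1, while ASH2L, MEN1, RBBP5 and CXXC1 had 12.5, 14.8, 18.4 and 32.9.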

How the data were processed

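NRF-1 ChIPmentation in U251 cells transfected with siControl or siAATF gave 1 broadPeak list each. Per the study's methods and the submitters' processing notes, reads were aligned to hg19 with Bowtie2, and MACS2 called peaks within a Nextflow ATAC-seq pipeline. Such a pipeline may shift reads from the transposase cut, which would move peak edges slightly. Peak start and end, the fold enrichment (a ratio over the local background), the −log10 p and −log10 q, and a display score were deposited by the authors. Read counts were not part of these files, so depth was unknown. The score and −log10 p were not used. A lower depth would leave weak peaks below the threshold.

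Promoters were 1 kb on either side of coding transcript starts (GENCODE release 44, lifted to GRCh37), and sequence came from the GRCh37 primary assembly. Each gene took its promoter peak of highest fold enrichment. Python 3.11.15, numpy 2.4.6, scipy 1.17.1 and pysam 0.24.0 were used, and the scripts were tested on simulated peaks with known answers. Shares have exact Clopper-Pearson and medians exact order-statistic 95% intervals, which cover counting error only. Genes are not replicates of a condition, and none of the comparisons has a p-value. The members, role groups, lists of other genes and tests were chosen with earlier results of these data known. Values were given for every member without a peak, the 5 highest and 5 lowest of each class by siControl rank, rank differences above 20 points, exact cores and genes with separate peaks, and other members by role. Alternatives were a −log10 q of at least 5, windows of 500 bp or 2 kb, the canonical start alone, the 10000 strongest peaks, ranks by −log10 q, 50% overlaps, the exact core, the core in whole peaks, and leaving out SETD3 and SETD6. Coordinates are 1-based.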

Additional observations from a re-analysis of the deposited data

How the results depend on the processing

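Of 110 values over 19 results and 11 alternatives, 96 stayed within the interval of the reported value, or within 1.5 times a count. Many of these intervals are wide, so this is a weak mark of stability. The methyltransferase median rank in siControl, 48.7 (38.4 to 75.1), was counted as unchanged at 73.0 by −log10 q. It had moved from below the all-gene median (63.4) to above it (65.2 on that scale). With the 10000 strongest peaks alone, the share of members with a promoter peak was 57.9% in siControl and 60.5% in siAATF, against 44.2% and 43.7% of all coding genes. It was 52.6% and 57.9% for methyltransferases, and 63.2% for demethylases in siAATF. Members with a peak in only 1 list numbered 2 with a window of 500 bp and 2 with the canonical start alone (KDM4D and KMT2D in both cases), and 3 with the 10000 strongest peaks (KDM4C, KMT5B and KDM5A). Members whose rank differed by more than 20 points numbered 2 with peaks of a −log10 q of at least 5, KMT5B (26.2) and KDM3B (−21.2), and KDM5A then had a peak in siAATF alone. They also numbered 2 with ranks by −log10 q, KDM5A and KDM5B (5.88%, against 2.37% of all coding genes). With the 10000 strongest peaks they were KDM3B (−26.4) and SETDB2 (−23.8). Except for the ranks by −log10 q, the matching shares of all coding genes were not computed for these counts. The counts therefore cannot be read as more or fewer than the background. The exact core was in 5.88% of the windows in siControl and 5.71% in siAATF, against 3.65% and 3.73% of all genes with a promoter peak. The median rank of methyltransferases in siControl was 32.7 with peaks of a −log10 q of at least 5, against 55.0 for all genes, and that of demethylases in siAATF was 82.3 by −log10 q. Fewer peaks lower these shares by construction, and otherwise the cause was not tested. No paired analysis was possible because each condition has a single list. Depth was unknown, so a missing peak means that none passed the threshold.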
